A study of Homo sapiens with 6 samples.

Results

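A pair of complementary sets of H3K27me3 regions set KARPAS-422 apart from Pfeiffer and WSU-DLCL2, the other lymphoma lines profiled with it. The first set holds the KARPAS-422 islands, the intervals called as enriched for the mark, that share no base with an island of the other lines. It counts 4478 of the 27589 autosomal islands of KARPAS-422 (16.2%). The second set holds the stretches of 5 kb or more that both other lines cover with islands and KARPAS-422 does not. It counts 6468 stretches, which make up 15.8% of the 750-base windows covered in both other lines. They are called KARPAS-422-only islands and missing stretches below. The members were chosen by the measured islands themselves, through the overlap of the lists, so these counts are descriptions and no test was made.

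H3K27me3 is the trimethyl mark on lysine 27 of histone H3. It is written by Polycomb repressive complex 2, whose catalytic subunit is EZH2, and it lies over silent genes, often as broad domains over developmental regulators. Germinal centre B cells depend on EZH2, and activating mutations of EZH2 recur in lymphomas that derive from them.

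Chromatin immunoprecipitation and sequencing mapped the mark in 3 established lines grown from diffuse large B cell lymphoma. All of them are labelled EZH2 mutant, so the comparison holds no line with wild-type EZH2, and the mutation of each line is not given in the labels. The labelled average gIC50, for a compound the labels do not name, was 28 nM for Pfeiffer, 134 nM for WSU-DLCL2 and 232 nM for KARPAS-422. No treatment other than fixation is labelled. Each line is represented by 1 H3K27me3 library and 1 input library, so differences between lines have no replicate spread to be set against, and line and library cannot be told apart.

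The islands of Pfeiffer, WSU-DLCL2 and KARPAS-422 held 17024803, 17188115 and 16039824 H3K27me3 reads on the autosomes. They held 8800268, 8224578 and 5694645 input reads. The median island rested on 216, 198 and 115 input reads, so single ratios were least precise in KARPAS-422. The strength of an island is given as its H3K27me3 reads divided by its input reads, relative to the median of this ratio over the autosomal islands of the same list. The list medians were 1.83, 1.96 and 2.65, and a relative ratio of 1 is the median island of the line. Intervals of single ratios are exact 95% binomial intervals that cover counting error only. Amplified copies of one DNA fragment carry no molecular identifier and would count repeatedly in them if kept. Whether such copies were removed before counting is not known here. A stretch without an island held too few reads to be called, which is not the same as no mark. No annotation of hg19, the build of the islands, was used here. Regions are therefore given by position. Gene names beside them are background from general knowledge of the genome map, with only the symbol and the chromosome looked up in a RefSeq table, and no count rests on them. B cell marker genes could not be checked against the islands for the same reason.

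KARPAS-422-only islands were many, short and weak. They covered 61.3 Mb, which is 8.62% of the bases covered in the line. Their median length was 10.5 kb, with quartiles of 7.5 and 15.75 kb. The 16640 KARPAS-422 islands that met both other lines had a median length of 20.25 kb, and the 6471 islands that met 1 other line lay between at 12 kb. The median relative ratio followed the same order, with 0.923 in the islands of KARPAS-422 only (95% order-statistic interval 0.918 to 0.928 over islands, which are not replicates), 0.957 in islands met by 1 other line and 1.05 in islands met by both. A relative ratio above 1 was found in 31.7% of KARPAS-422-only islands and in 58.7% of the islands that met both other lines. Since a long island more readily touches another, the rule itself favours short members.

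The lower ratio of KARPAS-422-only islands was present in every length class. Under 5 kb the median relative ratio was 1.18, against 1.32 in islands of that length that met both other lines. From 5 to 10 kb the medians were 0.967 and 1.07, and from 10 to 20 kb 0.890 and 1.00. From 20 to 50 kb they were 0.837 and 1.02. At 50 kb or more, where KARPAS-422-only islands numbered 73, they were 0.772 and 1.145. The ratio thus fell from class to class among KARPAS-422-only islands, while among islands shared with both lines it was lowest in the middle class and rose again in the longest. H3K27me3 reads per kb did not fall throughout. Relative to the median island of the line, their medians in KARPAS-422-only islands were 1.22, 0.952, 0.877, 0.912 and 1.04 from the shortest class to the longest. For input reads per kb they were 1.07, 0.985, 0.983, 1.08 and 1.37.

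**Figure D1:**
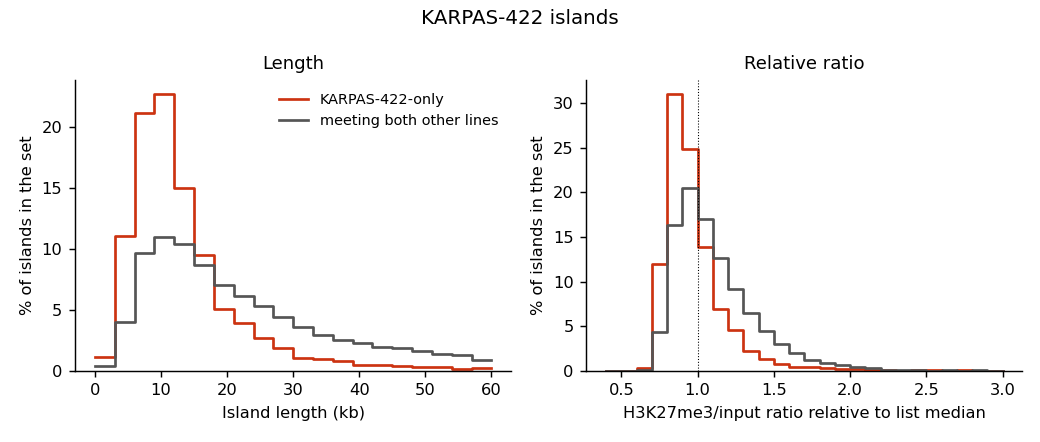
Length (left, kb, in classes of 3 kb) and H3K27me3 to input ratio relative to the list median (right, in classes of 0.1) of KARPAS-422 islands, as the percentage of each set. The 4478 KARPAS-422-only islands (red) and the 16640 islands that met both other lines (grey) both peak at 9 to 12 kb. The grey set holds a larger share of long islands. The ratio peaks lower in KARPAS-422-only islands, at 0.8 to 0.9 against 0.9 to 1. Islands beyond 60 kb or a relative ratio of 3 lie outside the axes.

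The missing stretches covered 84.0 Mb of the 531 Mb covered in both other lines. Their median length was 9.75 kb and the longest measured 249.75 kb. The rule takes in more than 1 arrangement. A KARPAS-422 island bordered 3515 of the 6468 stretches (54.3%), which together held 39.8 Mb. Of these, 2643 were bordered on 1 side and 872 on both sides, so that the islands of the other lines ran past the end of a KARPAS-422 island or across a break in it. Another 2083 stretches with 33.7 Mb lay 10 kb or more from any KARPAS-422 island, and 213 stretches with 4.01 Mb lay 500 kb or more away. In 942 cases the stretch was a whole island of Pfeiffer, in 1113 a whole island of WSU-DLCL2, and in 60 a whole island of both.

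A relative ratio given for a missing stretch is that of the whole island that covers it in the line named, which can reach far beyond the stretch. The islands of the other lines that carried the missing stretches were near the median strength of their lists. The 5342 Pfeiffer islands that covered at least 1 missing stretch had a median relative ratio of 0.976. Pfeiffer islands that met both other lines and covered no such stretch had 1.05. In WSU-DLCL2 the corresponding medians were 0.995 over 5469 islands and 1.02. Islands shared by Pfeiffer and WSU-DLCL2 without any island of KARPAS-422 were weaker, with 0.948 over 2415 islands of Pfeiffer and 0.970 over 2631 islands of WSU-DLCL2.

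The same rule was applied to each other line in the place of KARPAS-422. It gave 2288 islands (10.8% of the list, 37.9 Mb) found in Pfeiffer only and 2824 (12.2%, 39.1 Mb) found in WSU-DLCL2 only. Their median relative ratios were 0.923 and 0.961, so private islands were below the median of the list in each line. Stretches missing in Pfeiffer numbered 5378 (13.5% of the windows, 68.4 Mb) and those missing in WSU-DLCL2 5930 (14.7%, 76.0 Mb). KARPAS-422 thus had the largest number of both kinds in the lists as deposited. The leads changed with the lists. With 21258 islands per list, the number in Pfeiffer, taken in order of p-value, there were 3111 private islands of Pfeiffer, 2980 of WSU-DLCL2 and 2565 of KARPAS-422, while missing stretches numbered 4018, 5225 and 7314. With islands of a fold of at least 2, as the authors' files give it, the lists held 2233, 2603 and 5403 islands in the same order. Of these, 694, 998 and 2857 were private, and missing stretches numbered 859, 875 and 411. KARPAS-422 thus lost the lead in private islands in the first case and in missing stretches in the second, and kept the other lead in each.

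At the edges of the rule the members resembled their neighbours. The 122 KARPAS-422-only islands that lay within 3 windows of an island of another line had a median relative ratio of 0.940. The 66 KARPAS-422 islands that overlapped another line's islands by exactly 750 bases, and so just missed membership, had 0.9501. The 652 shortest missing stretches, 7 windows of the 750-base grid long, had median relative ratios of 1.02 in Pfeiffer and 1.04 in WSU-DLCL2. The 863 runs that were 1 window shorter, just under the limit, had 1.04 and 1.06. Far from these edges, KARPAS-422-only islands lay a median of 36 kb from the nearest island of another line, and 1279 of them (28.6%) lay 100 kb or more away.

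Both sets were unevenly spread over the autosomes. KARPAS-422-only islands took up 4.97% of chromosome 14, against 0.57% and 0.50% for the private islands of Pfeiffer and WSU-DLCL2. They took up 3.70% of chromosome 20 (0.89% and 0.77% in the other lines) and 3.29% of chromosome 17. Missing stretches took up 7.87% of chromosome 11, against 2.08% and 2.07% for the stretches missing in Pfeiffer and WSU-DLCL2. Each other line had such a peak elsewhere. Stretches missing in Pfeiffer took up 7.46% of chromosome 8, and those missing in WSU-DLCL2 took up 7.05% of chromosome 16. Chromosomes 14 and 20, the richest in KARPAS-422-only islands, had the lowest shares of missing stretches, 0.82% and 1.16%. Without chromosomes 11 and 14 the genome still held 4132 KARPAS-422-only islands and 5874 missing stretches. The outer 5 Mb of the chromosomes held 7.73% of KARPAS-422-only islands and 7.99% of missing stretches, against 12.4% of the KARPAS-422 islands that met both other lines.

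**Figure D2:**
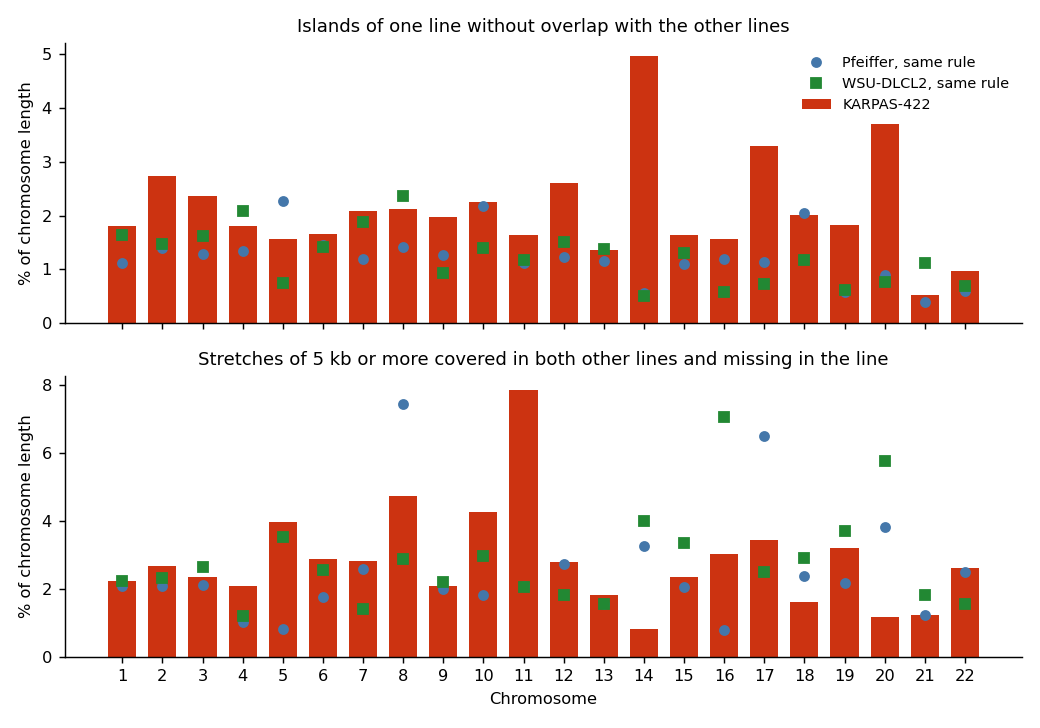
Share of each autosome (y axis, % of its length) in islands private to a line (top) and in stretches missing in a line (bottom), with KARPAS-422 as bars and the same rule applied to Pfeiffer (circles) and WSU-DLCL2 (squares). KARPAS-422-only islands stand out on chromosomes 14 (4.97%) and 20 (3.70%) and missing stretches on chromosome 11 (7.87%). Stretches missing in Pfeiffer peak on chromosome 8 (7.46%) and those missing in WSU-DLCL2 on chromosome 16 (7.05%).

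Input reads moved with both sets. Input reads per kb of islands were pooled for each 1 Mb bin over the bin and 2 Mb to either side and divided by the median of the line, and the result is called relative input. It varies with DNA copy number, among other things that were not separated here. In the 43 bins where relative input in KARPAS-422 was 0.75 or less, only 6 of its 285 islands were KARPAS-422-only. Missing stretches there took 67.6% of the bases covered in both other lines. In the 216 bins with a relative input of 1.3 or more, 402 of 1392 islands (28.9%) were KARPAS-422-only and missing stretches took 9.63%. Of the 3.489 Mb missing there, 456.75 and 674.25 kb lay in the chromosome 11 bins from 112000001 and 113000001, which are described below. In the bins between these limits the shares were 15.7% for KARPAS-422-only islands and 14.6% for missing stretches. Most members lay in these ordinary bins, with 4066 KARPAS-422-only islands and 5756 missing stretches.

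KARPAS-422-only islands in bins of raised input were longer and weaker than elsewhere. Their median length was 18 kb and their median relative ratio 0.807, against 10.5 kb and 0.932 in the bins between the limits. All KARPAS-422 islands in raised bins were weaker too, with a median of 0.855 against 1.01 in the bins between. Of the 73 KARPAS-422-only islands of 50 kb or more, 52 lay in raised bins, and of the 10 of 100 kb or more, 9 did. The part that input has in the calling of these islands was not tested.

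Bins were called balanced where the relative input of all 3 lines lay within 0.15 of 1. The 1532 balanced bins held 2896 KARPAS-422-only islands, 16.5% of the 17502 KARPAS-422 islands there, with a median relative ratio of 0.932. They held 3703 missing stretches, 13.8% of the bases covered in both other lines there. Under the same rule the balanced bins held 1493 private islands of Pfeiffer (10.7%) and 1836 of WSU-DLCL2 (12.7%), with 3066 and 3521 missing stretches. The shares of private islands in balanced bins were thus near those over all autosomes in each line.

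**Figure D3:**
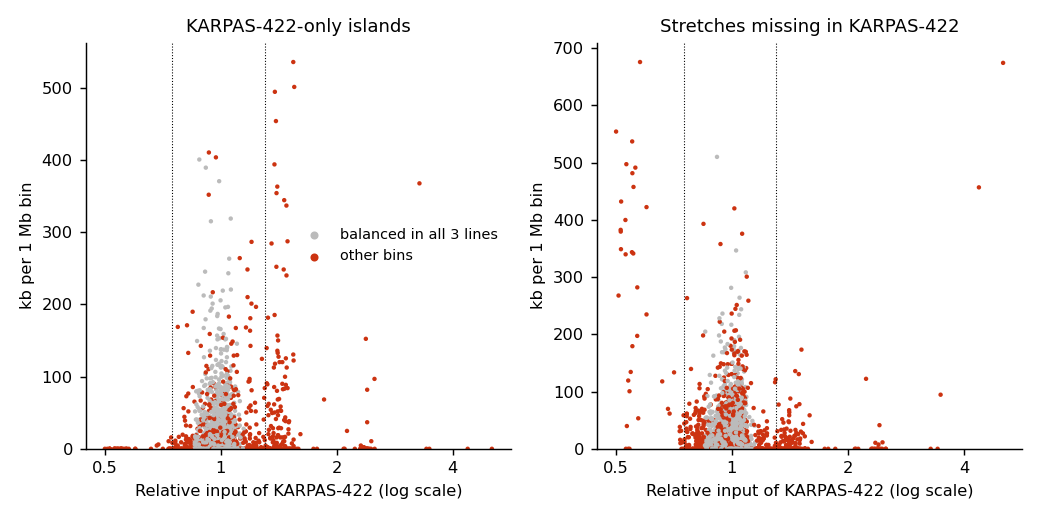
Length in KARPAS-422-only islands (left) and in missing stretches (right) per 1 Mb bin (kb), against the relative input of KARPAS-422 (log scale), with balanced bins in grey, other bins in red and dotted lines at 0.75 and 1.3. Bins of low input hold nearly no KARPAS-422-only islands and up to 675.75 kb of missing stretches; the 2 rightmost points of the right panel are the chromosome 11 bins from 112000001 and 113000001, whose pooled value reaches beyond the bin.

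A block at the end of the long arm of chromosome 11 held the densest group of missing stretches. From 114000001 to 134943750 the median relative input was 1.01 in Pfeiffer and 1.04 in WSU-DLCL2 but 0.552 in KARPAS-422. No KARPAS-422-only island lay in this block. It held 337 missing stretches with 7.65 Mb, which is 85.5% of what both other lines covered there. In the bin from 131000001, which by the map holds much of NTM, a neural cell adhesion gene, Pfeiffer covered 70.8%, WSU-DLCL2 82.3% and KARPAS-422 1.199%. In the bin from 120000001, where GRIK4, a glutamate receptor subunit gene, is mapped, they covered 77.9%, 70.4% and 9.68%. A shorter block of low input on chromosome 10, from 86000001 to 91000000, held 15 missing stretches, and its relative input was 0.538 in KARPAS-422 and also low, at 0.634, in WSU-DLCL2.

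The longest missing stretch of all, chr11:113799001-114048750, lay at the border of the chromosome 11 block and overlaps ZBTB16, which encodes a zinc finger transcription factor of stem cells and innate-like lymphocytes. It measured 249.75 kb. The Pfeiffer island over it, 324 kb long, held 7494 H3K27me3 and 3379 input reads, a relative ratio of 1.21 (1.16 to 1.26). That of WSU-DLCL2, 412.5 kb long, held 12758 and 5009 reads, a relative ratio of 1.301 (1.26 to 1.34). Within 500 kb of its centre the other lines covered 74.8% and 82.6%, and KARPAS-422 3.604%. The pooled relative input of KARPAS-422 in this bin was 5.05, over a window that reaches 2 Mb beyond the bin on either side. The segment of raised input from 100000001 to 114000000 had a median of 2.39, and the source of the higher value was not tested. A second measure, called local input, was added after the data had been seen. It is the input reads per kb of the line's islands within 500 kb, relative to its median island. For KARPAS-422 it was 0.578, for Pfeiffer 0.992 and for WSU-DLCL2 1.13. The bin before, from 112000001, in which NCAM1 is mapped, was covered by 63.7% and 59.8% in the other lines and 0.675% in KARPAS-422, too little to measure local input.

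Local input showed a similar edge on chromosome 10. The longest missing stretch in a balanced bin, chr10:99610501-99732750, measured 122.25 kb and overlaps CRTAC1, a cartilage matrix protein gene. The relative ratios were 1.23 in Pfeiffer and 1.16 in WSU-DLCL2, and the relative input of KARPAS-422 was 0.915. Its local input, however, was 0.486, from the few islands it had there. The stretch chr10:100022251-100118250 had a local input of 0.502. In all, 436 missing stretches with 8.81 Mb had a local input of 0.75 or less in KARPAS-422, 27 of them in balanced bins. For 287 stretches, with 5.98 Mb, KARPAS-422 had too few islands nearby for the measure. In balanced bins with a local input between 0.75 and 1.3 there remained 3601 missing stretches with 41.0 Mb and 2867 KARPAS-422-only islands with 34.3 Mb.

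Among stretches that met both conditions on input, the longest was chr10:102932251-103017000. It measured 84.75 kb, lay 22.5 kb from the nearest KARPAS-422 island and includes LBX1, a homeobox gene of muscle and spinal cord precursors. The relative ratios were 1.32 in Pfeiffer and, over an island of 294 kb, 1.27 in WSU-DLCL2, and local input in KARPAS-422 was 0.890. Local input fell beyond this stretch, to 0.795 for chr10:103020001-103076250, also missing, and 0.466 for the bin from 103000001. The stretch reaches into that bin, so its own value is pooled across this fall, whose part was not tested. Next were chr15:64257751-64333500 (75.75 kb, in DAPK2, a death-associated kinase gene) with relative ratios of 1.13 and 1.28, and chr22:47009251-47082750 (73.5 kb) with 1.60 and 1.27 over islands of 128.25 and 327.75 kb. Both bordered a KARPAS-422 island. The stretches chr10:34819501-34888500, chr2:45985501-46054500 and chr9:37911001-37980000 each measured 69 kb and lie in PARD3, a cell polarity gene, PRKCE, a protein kinase C gene, and SHB, an adaptor protein gene. They lay 20.25, 114.75 and 90 kb from a KARPAS-422 island. Their relative ratios ran from 0.9297 to 1.10 in Pfeiffer and from 0.998 to 1.14 in WSU-DLCL2, close to the median island of each list.

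Some regions with ordinary input had the mark over a larger share of a megabase in both other lines than in KARPAS-422. The bin of chromosome 3 from 71000001, where FOXP1, a forkhead factor of B cell development, is mapped, held 13 missing stretches with 308.25 kb. Islands of Pfeiffer covered 65.5% of it, those of WSU-DLCL2 74.6% and those of KARPAS-422 33.5%, at a local input of 1.19 in KARPAS-422. The longest of these stretches, chr3:71472001-71517750, lay 120.75 kb from the nearest KARPAS-422 island. In the bin of chromosome 6 from 32000001, which holds genes of the MHC class II region, islands covered 47.3%, 52.5% and 19.1%. It held 14 missing stretches with 218.25 kb, the longest being chr6:32355001-32398500 with relative ratios of 1.01 in Pfeiffer and 1.02 in WSU-DLCL2. Whether these stretches overlap a class II gene was not determined. On chromosome 21, in the bin from 36000001, islands covered 72.5%, 62.6% and 38.9%, with 16 missing stretches. On chromosome 4, the bin from 140000001, where MAML3, a Notch coactivator gene, is mapped, had 46.3%, 49.7% and 10.1%. These 4 bins had local inputs of 0.971 to 1.19 in KARPAS-422.

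Other regions had too few KARPAS-422 islands nearby to measure local input. The bin of chromosome 4 from 78000001 was covered by 39.8% in Pfeiffer and 49.1% in WSU-DLCL2 but not at all in KARPAS-422, and held 15 missing stretches with 346.5 kb. Its pooled relative input was within the balanced range. On chromosome 2 the stretch chr2:15823501-15913500, between DDX1 and MYCN on the map, lay 339 kb from the nearest KARPAS-422 island, with relative ratios of 1.07 in Pfeiffer and 1.01 in WSU-DLCL2.

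Long missing stretches outside balanced bins were not all in blocks of low input. The stretch chr17:45305251-45416250 overlaps ITGB3, the integrin beta chain of platelets, and measured 111 kb. Its relative ratios were 1.04 in Pfeiffer and 1.31 in WSU-DLCL2, at a local input of 0.995 in KARPAS-422 and 1.55 in Pfeiffer. The stretch chr14:95644501-95780250, in CLMN, measured 135.75 kb and had relative ratios of 1.26 and 1.07, over islands of 350.25 and 187.5 kb. It lay in a segment of raised input in KARPAS-422, with a local input of 1.56, where missing stretches were few.

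The strongest missing stretches were short. The ranking was by the lower relative ratio of the other lines, in balanced bins and 10 kb or more from a KARPAS-422 island. First was chr6:157536751-157559250 (22.5 kb), with 1.52 (1.33 to 1.74) in Pfeiffer and 1.57 (1.34 to 1.85) in WSU-DLCL2. Others among the 10 follow. The stretch chr11:47355001-47373750, in MYBPC3 beside the myeloid and B cell factor gene SPI1, had 1.42 (1.21 to 1.67) and 1.37 (1.18 to 1.59). It lay 120 kb from the nearest KARPAS-422 island. The stretch chr22:24114751-24126750 overlaps MMP11, a matrix metalloproteinase gene, and had 1.32 and 1.91. Their local inputs in KARPAS-422 were 1.05, 0.956 and 0.892.

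Of the 10 longest KARPAS-422-only islands, 9 lay in bins of raised input. The first, chr11:109063501-109272750, measured 209.25 kb and held 6277 H3K27me3 and 3577 input reads. Its relative ratio of 0.66 (0.63 to 0.69) was the lowest of all 4478, at a local input of 2.43. On chromosome 2 the segment from 58000001 to 88000000, with a median relative input of 1.46, held 54 KARPAS-422-only islands with 1.84 Mb. The bin from 66000001, in which MEIS1, a homeobox gene of blood stem cells, is mapped, was covered by 9.23% in Pfeiffer and 80.05% in KARPAS-422, and held no island of WSU-DLCL2. Its 3 longest KARPAS-422-only islands, chr2:66214501-66366000, chr2:66477751-66573750 and chr2:66714001-66796500, had relative ratios of 0.770, 0.738 and 0.767. The 193.5 kb island chr2:66909001-67102500, centred in the next bin, had 0.730. In the bin from 80000001, where the neural genes CTNNA2 and LRRTM1 are mapped, KARPAS-422 covered 45.4% and the other lines nothing. There chr2:80443501-80628000, 184.5 kb long, lay 1056.75 kb from the nearest island of another line. On chromosome 14 the segments of raised input from 28000001 to 42000000 and from 47000001 to 84000000 held 76 and 90 KARPAS-422-only islands with 1.88 and 2.31 Mb. Their median relative ratios were 0.805 and 0.803.

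A few long KARPAS-422-only islands were of ordinary or higher strength. The island chr17:64393501-64537500, in the protein kinase C gene PRKCA, measured 144 kb and held 2967 H3K27me3 and 1089 input reads. Its relative ratio was 1.03 (0.96 to 1.10), and the local input of its bin was 0.998 in KARPAS-422 and 1.05 in WSU-DLCL2 but 1.51 in Pfeiffer. Islands covered 71.8% of that bin in KARPAS-422, 47.7% in Pfeiffer and 30.8% in WSU-DLCL2. The island chr20:37432501-37554750 measured 122.25 kb and lies over PPP1R16B, a phosphatase regulatory subunit gene. It had the highest relative ratio of the 10 longest, 1.22 (1.14 to 1.31), at a local input of 1.32. The nearest island of another line lay within 10 kb.

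The balanced bins with the greatest length in KARPAS-422-only islands, picked by that length, held clusters of such islands of moderate length. On chromosome 12 the bin from 128000001, where TMEM132C is mapped, held 24 KARPAS-422-only islands with 400.5 kb. Pfeiffer had no island in it, WSU-DLCL2 covered 4.57% and KARPAS-422 56.8%. The median relative ratio of the 24 was 1.09, above that of KARPAS-422-only islands in general, and the longest, chr12:128862001-128919000, had 1.06 (0.94 to 1.19). The bin of chromosome 3 from 54000001, within the calcium channel subunit gene CACNA2D3, held 13 with 263.25 kb and was covered by 12.98%, 28.7% and 73.5%. On the same chromosome the bin from 131000001, where the copine gene CPNE4 is mapped, held 17 and was covered by 12.7%, 9.82% and 54.6%. On chromosome 10 the bin from 2000001 held 27, and that from 10000001 held 19, with 0% and 0.225% covered in the other lines. On chromosome 1 the bin from 217000001, at the estrogen-related receptor gene ESRRG, held 15 with a lower median relative ratio of 0.827. Local input in KARPAS-422 lay between 0.936 and 1.14 in these 6 bins.

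**Figure D4:**
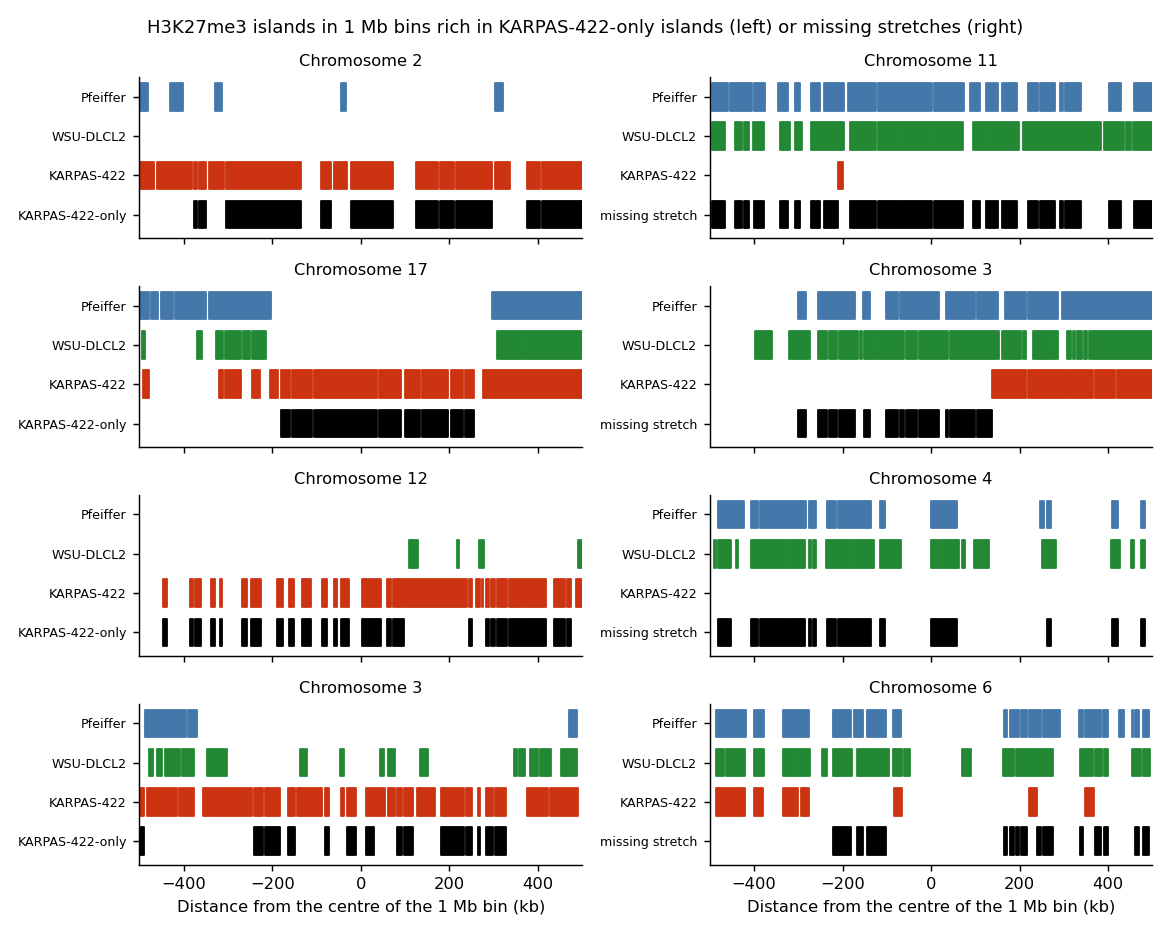
Islands of the 3 lines (coloured bars) and the members (black bars) in 8 bins of 1 Mb, by distance from the centre of the bin (kb). The left column shows KARPAS-422-only islands in bins on chromosomes 2, 17, 12 and 3 and the right column missing stretches in bins on chromosomes 11, 3, 4 and 6; the chromosome 4 bin has no KARPAS-422 island at all.

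The strongest KARPAS-422-only islands rested on few input reads. A relative ratio of 1.5 or more was reached by 2.86% of them, against 9.10% of the islands that met both other lines. A relative ratio of 2 or more was reached by 32, with a median length of 3.375 kb. The first, chr16:4416751-4421250, in the coronin gene CORO7, held 188 H3K27me3 and 20 input reads, a relative ratio of 3.54 (2.23 to 5.93). It lay 28.5 kb from the nearest island of another line, and within 500 kb of its centre the lines covered 53.9%, 51.8% and 48.5%. The best counted of the 10 strongest in balanced bins, chr10:134603251-134612250, held 221 and 35 reads, a relative ratio of 2.38 (1.66 to 3.504). In the same ranking chr15:94314751-94319250 lay farthest from other islands, at 303.75 kb, with 94 and 16 reads and a relative ratio of 2.21 (1.295 to 4.03). Ranking by ratio favours chance highs, for which the intervals make no allowance.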

How the data were processed

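Bowtie, SICER and hg19 are named, without versions, per the submitters' processing notes. File names of the deposited lists record a SICER window of 750 bases and a gap of 2250 bases, with 0.001 as the false discovery rate. Each deposited list gives whole counts of H3K27me3 and input reads per island, a p-value, a fold (ratio) over input and a q-value, all made by the authors. Reads outside islands and full library depth are unknown.

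Positions were read from the 22 autosomes and are printed counted from 1. Overlap was counted from 1 base. Relative ratio is the count ratio over the list median. Relative input needed 30 kb of islands per window and local input 10 kb. Named intervals are, for each set, among the 10 longest and the 10 of highest relative ratio with at least 50 H3K27me3 reads, over all bins and within balanced bins (for missing stretches also those 10 kb or more from a KARPAS-422 island); the planned ranking by start site was not run. Bins named are among the 10 with the greatest length of each set; other intervals are the longest members of such bins. The lists by bin and by local input were chosen after values were seen. Members and lists were chosen with earlier results of these data known. Planned results on start sites, gene lists, GC and CpG needed a genome of this build and were not run. The set rules were tested on simulated lists. Python 3.11.15, numpy 2.4.6, pandas 2.3.3, scipy 1.17.1 and matplotlib 3.10.9 were used.

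Alternatives were stricter lists (false discovery rate 1e-10, or fold 2 and above), lists made equal in number or in covered length, islands under 5 kb apart joined, chromosome X included, balanced bins, a distance of 10 kb, an overlap of under 10% allowed, minimums of 3 windows and 10 kb, and islands over 3 times the median input left out. Added after seeing the data were balanced bins with local input between 0.75 and 1.3, and the genome without chromosomes 11 and 14.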

Additional observations from a re-analysis of the deposited data

Results flagged for a closer look

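Chromosome X was outside the rule, and it held 781 KARPAS-422-only islands among its 883 islands in KARPAS-422 (88.4%), with 11.9 Mb. Pfeiffer had 60 islands there and WSU-DLCL2 114. The 781 KARPAS-422-only islands had a median relative ratio of 0.947. Input reads per kb of islands on the chromosome were 0.912 of the autosomal value in KARPAS-422, 0.651 in Pfeiffer and 0.622 in WSU-DLCL2, and their part in the difference was not tested.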

How the results depend on the processing

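The 14 alternatives gave 61 values of 5 results, of which 37 stayed near the value first given and 24 moved. A reversal was defined only for the median relative ratio of KARPAS-422-only islands, which stayed below 1 in every alternative run. Counts and lengths could only stay near or move. The lead of KARPAS-422 over the other lines was lost in some alternatives, as given above. Counts or lengths moved when they changed by more than 1.5 times, and the median when it left its interval of 0.918 to 0.928. Balanced bins, local input, the distance of 10 kb and the minimum of 10 kb keep a part of the same members. Counts and lengths could only fall there. The share of KARPAS-422-only islands was 16.5% in balanced bins and 16.2% over all autosomes. The number of KARPAS-422-only islands, 4478 of 27589, was 2704 at a false discovery rate of 1e-10. It was 2857 of 5403 at a fold of at least 2 and 2565 of 21258 (38.9 Mb) in lists of equal number. Balanced bins held 2896 of 17502 (34.5 Mb), and balanced bins with ordinary local input held 2867 (34.3 Mb). The number of missing stretches, 6468, was 411 (7.14 Mb) at a fold of at least 2, 3703 (43.1 Mb) in balanced bins, 3601 (41.0 Mb) with ordinary local input, 2083 (33.7 Mb) at 10 kb or more from a KARPAS-422 island, 11842 with a minimum of 3 windows of 750 bases and 3111 with a minimum of 10 kb. The median relative ratio was 0.955 at a false discovery rate of 1e-10, 0.968 at a fold of at least 2, 0.955 in lists of equal number, 0.934 with islands joined, 0.932 in balanced bins and 0.918 at 10 kb or more. No paired analysis was possible because each line has 1 library of each kind and no test was made. Why the count of missing stretches is so low at a fold of at least 2 was not tested; the minimum leaves 5403 islands in KARPAS-422, 2233 in Pfeiffer and 2603 in WSU-DLCL2, and the count becomes the lowest of the lines instead of the highest. Low input reads in KARPAS-422 limit single ratios, and a stretch missing from a list may hold mark below the calling limit.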

Other observations

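Of 2893 bins of 1 Mb, 376 had at least 50 kb of KARPAS-422-only islands, 540 at least 50 kb of missing stretches, and 37 had both. The 100 bins richest in each kind held 35.0% of the length in KARPAS-422-only islands and 30.3% of that in missing stretches.

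Below the limit of 5 kb there were 8876 further runs covered in both other lines and not in KARPAS-422, with 21.3 Mb in all.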
